A study of Rattus norvegicus with 23 samples.

Results

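This account covers 118 genes that healthy rat median nerve expressed above muscle and vein and that stood higher at day 7 than at day 3 after nerve repair. They were chosen from the 32545 gene identifiers of the study by 4 conditions on group means in CPM (a gene's count scaled to the total count of its library). The healthy nerve mean was at least 10 CPM and at least 3 times both the muscle and the vein mean, which held for 710 identifiers. The day 7 mean was at least 3 times the day 3 mean in the repair labelled EV (199 of the 710) and at least 2 times in the repair labelled MIV (241 of the 710), and 158 met both ratios. The EV day 7 mean was at least 1 CPM in 118 of them, the members described here. These numbers leave out a few identifiers that the rule sets aside by number. The other 592 nerve-rich genes met the nerve thresholds and failed at least 1 of the other conditions, and they serve as a comparison set.

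The libraries came from adult female rats, all labelled WT. The median nerve had been cut to leave a gap of 8 mm and, per the series design, was bridged by a muscle-in-vein graft of 10 mm, which is a length of vein that holds skeletal muscle. Regenerating nerve was taken at day 3 and day 7 from repairs labelled MIV (n = 3 at each day) and EV (n = 3 at each day). The treatment label of EV names repair of the cut without MIV, and what EV abbreviates is not spelled out. The untreated tissues, labelled day 0, were 5 libraries of healthy median nerve, 3 of adductor muscle and 3 of epigastric vein. No label ties a library to an animal, so the p-values reflect only how these libraries vary, which may be technical. The study title asks what muscle fibres contribute to the early stage of regeneration in the graft.

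Peripheral nerve consists of axons wrapped by Schwann cells, within sheaths built by perineurial cells and fibroblasts. After a cut, the axons beyond the injury break down, and Schwann cells there switch off myelin genes and take up a repair state. A new tissue bridge then forms in the gap, and Schwann cells migrate into it from the stumps ahead of the growing axons. Transcripts typical of nerve can therefore be scarce in early regenerating tissue. Whether the entry of cells or axons accounts for the levels described here was not tested. No identifier of the deposited table matched a gene symbol in the reference used, so the roles of single members are not given, and the tissue labels could not be checked against marker genes.

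Library totals ran from 12504035 to 17314324 counts. Muscle-rich genes (608 genes at 10 CPM or more in healthy muscle and at least 3 times both other tissues) took 2.64% to 2.82% of the counts in the EV day 7 libraries. In the MIV day 7 libraries they took 8.87%, 2.63% and 18.4% in replicates 1 to 3. The MIV day 7 libraries therefore differed widely from each other in muscle transcripts, and their values for the members are given library by library.

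Across the healthy tissues the members were close to absent from muscle and low in vein. Their median of group means was 86.9 CPM in healthy nerve (range 10.9 to 3794), 0.908 CPM in muscle and 6.14 CPM in vein. These tissue contrasts chose the members and are given as a description. The nerve mean was at least 10 times the vein mean in 66 members and at least 10 times the muscle mean in 100. The vein mean was above the muscle mean in 106 members, so vein was the nearer of the 2 grafted tissues for most of them. Together the members held 3.89% ± 0.258 (SD, n = 5) of the counts in healthy nerve, 0.375% ± 0.0440 (SD, n = 3) in vein and 0.0638% ± 0.00854 (SD, n = 3) in muscle. CPM is not divided by gene length, so levels are compared within a gene and not between genes.

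At day 3 the members had nearly vanished from both repairs. The median member stood at 1.18% of its healthy nerve mean in EV and at 1.12% in MIV, and 54 of 118 members in EV and 58 in MIV were below 1% of it. No member reached 50% of the healthy nerve mean in either repair at that day, and the highest stood at 48.4% in EV and 29.1% in MIV. Their share of counts was 0.0778% ± 0.0312 in EV and 0.0668% ± 0.0191 in MIV (SD, n = 3 each). Bulk tissue cannot tell fewer cells of a type from less RNA per cell, and this holds for all levels below. At day 3 the members also lay below healthy vein, a tissue of the MIV graft. Every healthy vein library was above every EV day 3 library for 80 of 118 members (67.8%, against 21.9% of the 23446 genes with a count), and above every MIV day 3 library for 87 (73.7%, against 22.3%). Among the other nerve-rich genes these shares were 27.9% and 26.9%. The other nerve-rich genes stood higher at day 3, with medians of 12.0% of the healthy nerve mean in EV and 13.96% in MIV. The rule asks for a low day 3 mean, so this gap and the low place against vein belong to the choice of members.

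**Figure D1:**
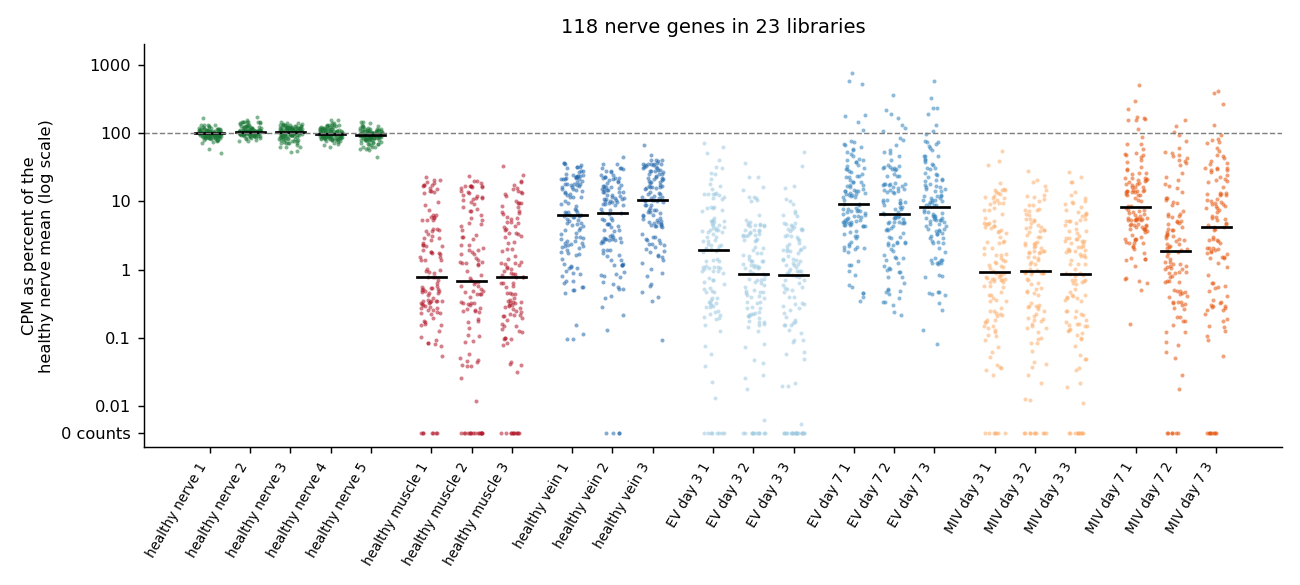
Each point is 1 of the 118 members in 1 library, plotted as CPM in percent of its healthy nerve mean on a log axis, with members without a count drawn at the bottom and a black bar at the library's median. The medians lie near 1% in the day 3 libraries, between 6.55% and 9.11% in the EV day 7 libraries, and at 8.21%, 1.88% and 4.17% in MIV day 7 replicates 1 to 3.

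By day 7 the group means of the members had come part of the way back, a rise that the rule asks for. The median member stood at 8.59% of its healthy nerve mean in EV (range 0.233% to 507%) and at 5.41% in MIV (range 0.0529% to 346%). In EV, 12 members were still under 1%, 51 lay from 1% to 10%, 41 from 10% to 50%, 7 from 50% to 100%, and 7 at or above the healthy nerve mean. In MIV the same classes held 15, 61, 28, 10 and 4 members. The share of counts taken by the members was 0.425% ± 0.0618 in EV and 0.338% ± 0.189 in MIV (SD, n = 3 each), near the share in healthy vein and far below that in healthy nerve. The other nerve-rich genes had medians of 15.6% in EV and 14.6% in MIV at day 7. The members thus stood lower relative to healthy nerve, at the median, than the nerve-rich genes that the rule left out. The ratios of the rule favour genes that were low at day 3, so this gap also belongs at least in part to the choice of members.

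The size of the return varied widely among members. The day 7 to day 3 ratio of means had a median of 6.32 in EV (range 3.01 to 135 over the 116 members with a day 3 count) and 5.56 in MIV (range 2.003 to 79.7, also over 116). The ratio was at least 10 in 31 members in each repair and at least 20 in 16 members in EV and 10 in MIV. These ratios chose the members, so no test is attached to them. Of 117 members that edgeR could fit, 72 passed higher at day 7 in EV (9.41% of all genes tested did) and 51 in MIV (7.39%). None passed lower, against 10.2% and 8.09% of all genes. The rule used this contrast, and nothing is read from those counts. Every EV day 7 library was above every EV day 3 library for 110 members (16.9% of all genes with a count), while the same held in MIV for 58 members (8.98% of all genes). At the edge of the rule, the 15 members nearest the EV threshold had ratios of 3.01 to 3.498, and the 19 genes just outside it had ratios of 2.52 to 2.96. The 12 members nearest the MIV threshold had ratios of 2.003 to 2.35, and the 13 genes just outside it ratios of 1.68 to 1.95.

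Low counts at day 3 limit many of these ratios. Summed over the 3 EV day 3 libraries, 50 members had at most 30 counts, 5 had 1 to 3 counts and 2 had none. In MIV the numbers were 48, 7 and 2. The ratio of such a gene is imprecise, and counts are given beside many of the low values of single genes.

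**Figure D2:**
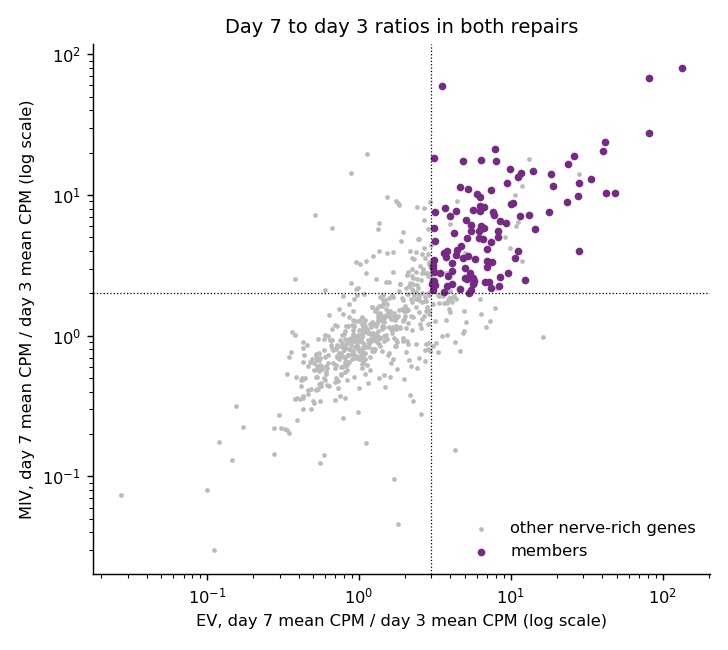
The plot sets the EV ratio of day 7 to day 3 mean CPM (x, log scale) against the MIV ratio (y, log scale) for 114 members with a day 3 count in both repairs and for 554 other nerve-rich genes, with dotted lines at the thresholds of 3 and 2. Members fill the upper right corner by choice, some grey genes there had an EV day 7 mean under 1 CPM, and the other nerve-rich genes centre near a ratio of 1 (medians 1.22 in EV and 1.01 in MIV).

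The members with more than 3 counts at day 3 and the highest EV ratios were ENSRNOG00000023007 and ENSRNOG00000005348. ENSRNOG00000023007 stood at 13.5, 24.5, 14.3, 41.3 and 38.3 CPM in healthy nerve. It stood at 2.80, 0.829 and 1.28 CPM in EV at day 3 (35, 11 and 19 counts), and at 152, 95.5 and 154 CPM in EV at day 7. In MIV it stood at 3.36, 1.72 and 2.38 CPM at day 3 and at 77.9, 27.5 and 99.5 CPM at day 7. All EV day 7 libraries lay above all healthy nerve libraries, and the MIV day 7 libraries overlapped with nerve in replicate 2. ENSRNOG00000005348 stood at 66.9, 112, 83.2, 62.4 and 72.4 CPM in healthy nerve, and at 1.60, 0.753 and 0 CPM in EV at day 3 (20, 10 and 0 counts). At day 7 it stood at 46.2, 84.2 and 60.8 CPM in EV and at 136, 12.5 and 43.8 CPM in MIV. Its EV day 7 replicate 2 lay within the healthy nerve range and replicates 1 and 3 below it, and its MIV day 7 libraries lay on both sides of that range.

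How far the members still were from healthy nerve was tested over all 23 libraries with edgeR's quasi-likelihood test. The means of these groups enter the rule through other contrasts, and all 4 comparisons share the 5 healthy nerve libraries. At day 3, 117 of 118 members were lower than in healthy nerve in EV (30.7% of the 15954 genes tested were lower) and 118 in MIV (30.6%). The median log2 fold changes were -6.52 and -6.61. The exception in EV, named after its values were seen, was ENSRNOG00000005600 (log2 fold change -1.70 ± 0.79 SE, edgeR adjusted p = 0.0697). It stood at 34.4, 12.6 and 9.26 CPM in EV at day 3 and at 420, 31.2 and 22.2 CPM at day 7, where 1 library lay far above the healthy nerve range of 44.7 to 63.3 CPM and the other 2 below it. Of the other nerve-rich genes, 521 of 592 were lower in EV and 510 in MIV, so a low level at day 3 was usual for nerve-rich genes in general.

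At day 7 in EV, 101 members were still lower than in healthy nerve (24.0% of all genes tested) and 2 were higher (24.1%), with a median log2 fold change of -3.70. In MIV, 101 were lower (25.4%) and 2 higher (29.2%), with a median of -4.25. Of the other nerve-rich genes, 536 of 592 were lower in EV and 520 in MIV. Every healthy nerve library was above every EV day 7 library for 108 members (15.0% of all genes with a count) and above every MIV day 7 library for 105 (16.3%). Most members thus stayed below the healthy level at day 7 in both repairs, and 15 in each repair passed in neither direction.

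**Figure D3:**
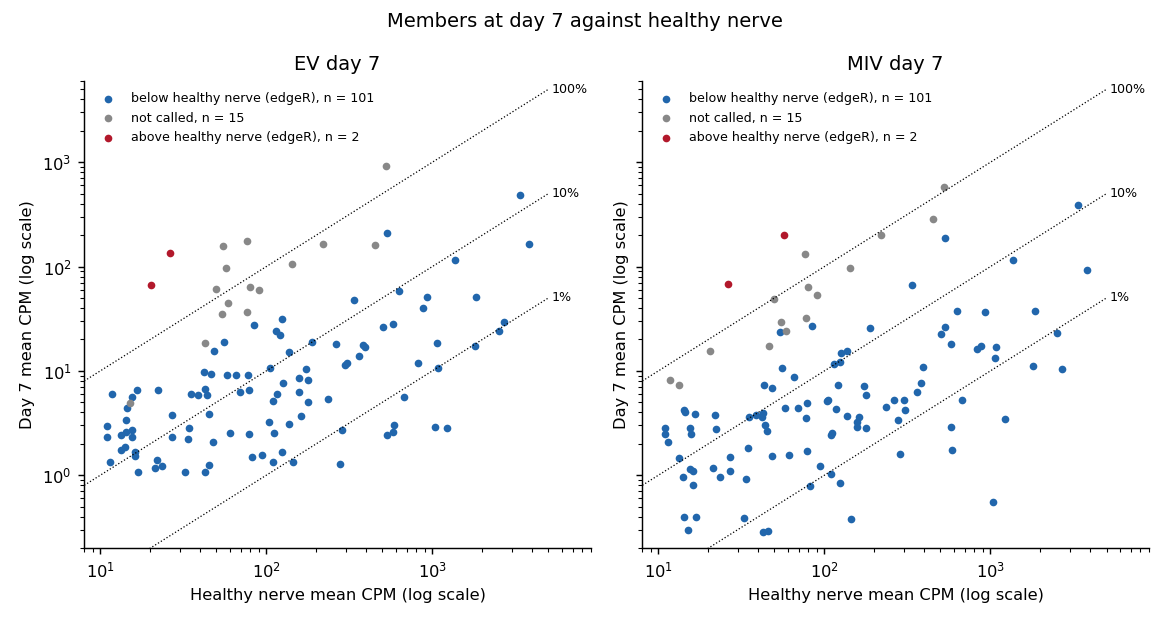
The day 7 mean CPM of each member (y, log scale) is set against its healthy nerve mean CPM (x, log scale) for EV on the left and MIV on the right, with dotted lines at 100%, 10% and 1% of healthy nerve and colours for edgeR's call. In each repair 101 members lie below healthy nerve by the test, 15 are not called and 2 lie above. The EV panel has no member under 1 CPM because the rule asks for it.

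In EV the 2 members called above healthy nerve were ENSRNOG00000023007 and ENSRNOG00000005392. The mean of ENSRNOG00000023007 was 134 CPM ± 33.2 (SD, n = 3) in EV at day 7, against 26.4 CPM ± 13.0 (SD, n = 5) in nerve. Its log2 fold change was 2.17 ± 0.43 SE (edgeR adjusted p = 4.19e-04). ENSRNOG00000005392 stood at 20.8, 34.1, 14.4, 19.5 and 12.8 CPM in healthy nerve, at 10.2, 7.38 and 6.56 CPM in EV at day 3 and at 107, 44.1 and 46.8 CPM in EV at day 7. All EV day 7 libraries were above all healthy nerve libraries (log2 fold change 1.55 ± 0.51 SE, edgeR adjusted p = 0.0175). That call rests on EV day 7 replicate 1, without which the log2 fold change was 0.98 (edgeR adjusted p = 0.179) and 1 member was called higher in EV.

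In MIV the 2 members called above healthy nerve were ENSRNOG00000059500 and ENSRNOG00000023007. ENSRNOG00000059500 stood at 62.3, 48.2, 73.9, 51.4 and 51.0 CPM in healthy nerve, at 7.52, 1.51 and 2.16 CPM in EV at day 3 and at 83.4, 96.1 and 110 CPM in EV at day 7. In MIV it stood at 19.2, 6.95 and 5.33 CPM at day 3 and at 285, 73.4 and 237 CPM at day 7. MIV day 7 replicate 2 lay within the range of healthy nerve and the other 2 libraries far above it (log2 fold change 1.73 ± 0.42 SE, edgeR adjusted p = 0.00194). This gene also stood at 11.5 CPM ± 0.123 in muscle and 14.7 CPM ± 3.93 in vein (SD, n = 3 each). ENSRNOG00000023007 had a log2 fold change of 1.31 ± 0.43 SE in MIV (edgeR adjusted p = 0.0152), and this call was lost without MIV day 7 replicate 3 (edgeR adjusted p = 0.115), which left 1 member called higher.

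Members that remained far below healthy nerve included ENSRNOG00000014940 and ENSRNOG00000009345, the lowest in EV at day 7 in percent of healthy nerve. ENSRNOG00000014940 stood at 1222, 959, 1541, 1254 and 1129 CPM in healthy nerve. It had 2, 1 and 1 counts in the EV day 3 libraries and 4.88, 2.67 and 0.982 CPM (67, 34 and 15 counts) in those of day 7, which is 0.233% of the healthy nerve mean. In MIV at day 7 it stood at 8.91, 0.219 and 1.15 CPM (135, 3 and 15 counts), or 0.281% of nerve. The healthy vein mean of 14.2 CPM ± 4.98 (SD, n = 3) was above both day 7 means. ENSRNOG00000009345 stood at 963, 992, 976, 921 and 1347 CPM in healthy nerve, and at 4.74, 2.51 and 1.38 CPM (65, 32 and 21 counts) in EV at day 7. In MIV at day 7 it had 25, 0 and 0 counts, so its entry into the set, with a MIV ratio of 2.77, rests on MIV day 7 replicate 1. At 0.0529% of healthy nerve it was the lowest member in MIV, followed by ENSRNOG00000025670 at 0.266% (14, 1 and 2 counts). For ENSRNOG00000025670 healthy vein stood at 40.1 CPM ± 13.4 (SD, n = 3) against 0.383 CPM ± 0.470 (SD, n = 3) in MIV at day 7.

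**Figure D4:**
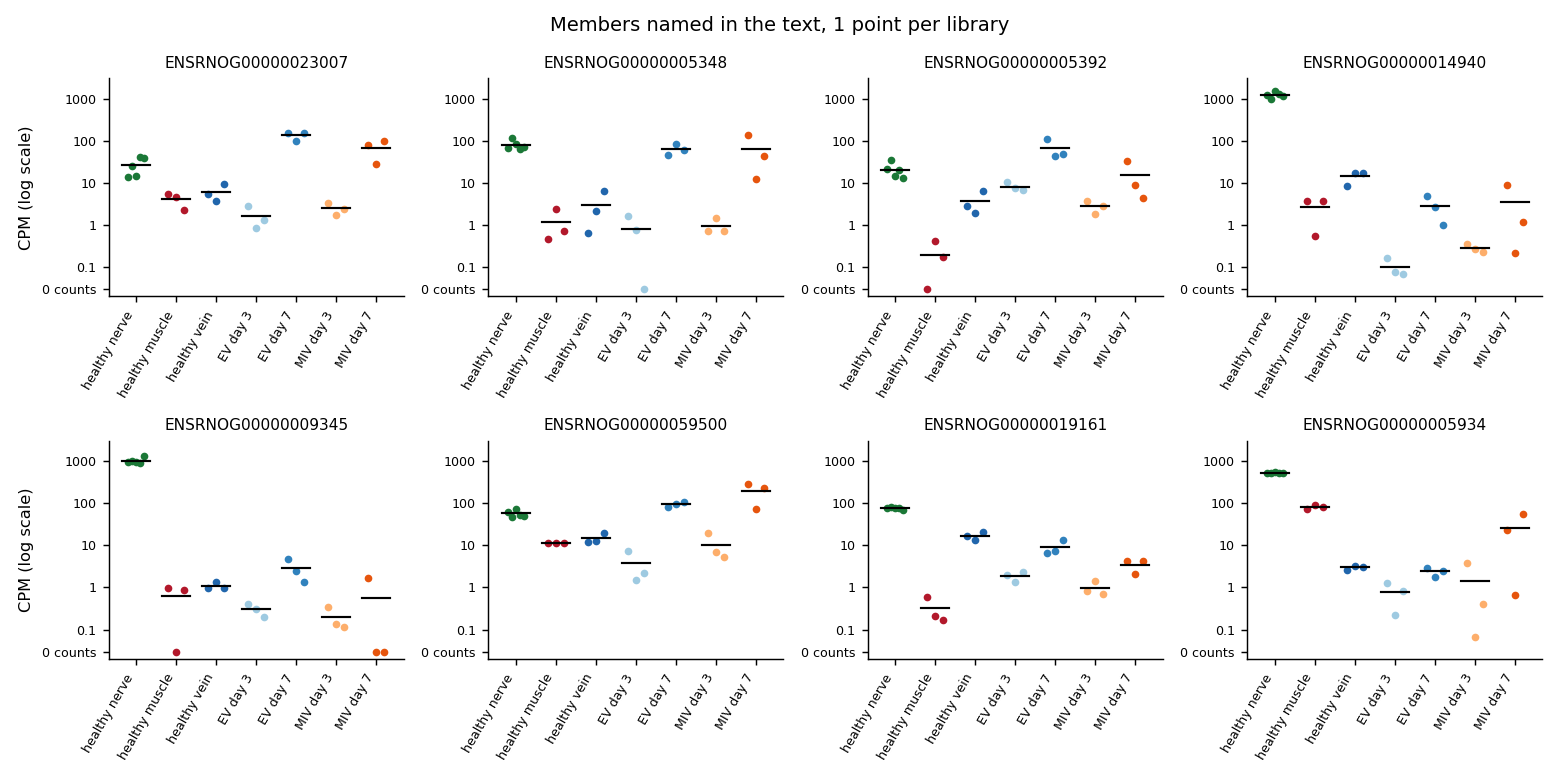
CPM on a log scale is shown for 8 members in the 7 groups, with 1 point per library, a bar at the group mean and libraries without a count drawn at the bottom. ENSRNOG00000023007 and ENSRNOG00000005392 lie above healthy nerve in all EV day 7 libraries, while ENSRNOG00000014940 and ENSRNOG00000009345 lie below 10 CPM in every day 7 library and at 921 CPM or more in every nerve library.

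The level at day 7 in percent of healthy nerve differed between classes of nerve level, without a steady order. The 42 members with a nerve mean of 10 to 50 CPM had median levels of 15.4% in EV and 9.41% in MIV. Those of the 19 members at 50 to 100 CPM were the highest, at 32.8% and 19.4%. Those of the 34 members at 100 to 500 CPM were 4.61% and 2.49%, and those of the 23 members above 500 CPM were 1.75% and 1.96%. The floor of 1 CPM on the EV day 7 mean keeps out low-level genes at a small percentage, so part of these differences is set by the rule.

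Against healthy vein, the members parted at day 7 into those above and those below it. In EV the day 7 mean was above the healthy vein mean for 65 members and below it for 53. Every EV day 7 library was above every vein library for 36 members (30.5%, against 19.4% of all genes with a count). Every vein library was above every EV day 7 library for 27 (22.9%, against 16.0%). In MIV the day 7 mean was above vein for 45 members and below it for 73. The libraries were fully separated with MIV above for 18 members (15.3% of the members, against 16.4% of all genes) and with vein above for 31 (26.3%, against 19.6%). Among the other nerve-rich genes, the repair was fully above vein for 39.2% in EV and 28.2% in MIV. Vein was fully above for 16.2% and 18.6% of them. The rule sets the nerve to vein ratio and favours a low day 3 mean, so these counts belong in part to the choice of members. The day 7 mean was above both vein and muscle for 62 members in EV and 42 in MIV. For the 53 and 73 members at or below the vein level, a contribution of vein to the day 7 counts was not tested. Whether the EV repairs held any vein is not known here.

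Between the repairs, no member differed by edgeR's quasi-likelihood test on the 12 repaired libraries at either day, and neither did any of the 15036 genes tested (0% called in each direction). At day 3 the median log2 fold change of MIV against EV over 117 members was -0.19, against -0.02 over all genes, with 64 members negative. At an unadjusted p under 0.05, 8 of the 117 members were lower in MIV (1.44% of all genes tested) and 2 higher (3.71%). Every EV day 3 library was above every MIV day 3 library for 14 members (11.9%, against 3.05% of all genes with a count), and the reverse held for 7 (5.93%, against 5.49%).

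At day 7 the members lay somewhat lower in MIV than in EV as a group, without any passing alone. The median log2 fold change over 117 members was -0.46 with 85 negative (72.6%), against 0.01 and 49.1% over all genes and -0.03 and 51.9% over 516 other nerve-rich genes. At an unadjusted p under 0.05, 10 of the 117 members were lower, a share near that of all genes (6.90%), and 1 was higher (9.82%). The groups were fully separated with EV above for 17 members (14.4%), a share near that of all genes (12.4%). They were separated with MIV above for 1 member (4.60% of all genes). This was ENSRNOG00000049862, named after its values were seen, with means of 8.10 CPM in MIV and 5.97 CPM in EV. The rule asks for a ratio of 3 in EV and 2 in MIV and sets a floor on EV day 7 alone, so the choice of members bears on the sign of this difference. DESeq2 called 2 members lower (1.53% of all genes it tested), and edgeR on all 23 libraries called 3 lower (1.93%) and 1 higher (5.18%). The shares called lower were near those of all genes. At day 7 the EV and MIV libraries of the same replicate number were weakly correlated (r = 0.224, 0.201 and 0.176). Some libraries with different numbers reached similar values in other groups, so these correlations do not establish a pairing. A fit with that number as a block within each day called 1 member lower (0.0599% of all genes). This was ENSRNOG00000005392 (log2 fold change -2.34 ± 0.32 SE, edgeR adjusted p = 0.0401). The planned block, with 1 effect per number across days, called 0. The change from day 3 to day 7 differed between the repairs for 0 of 15036 genes in edgeR's interaction test, with 796 genes and 1 member at an unadjusted p under 0.05.

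**Figure D5:**
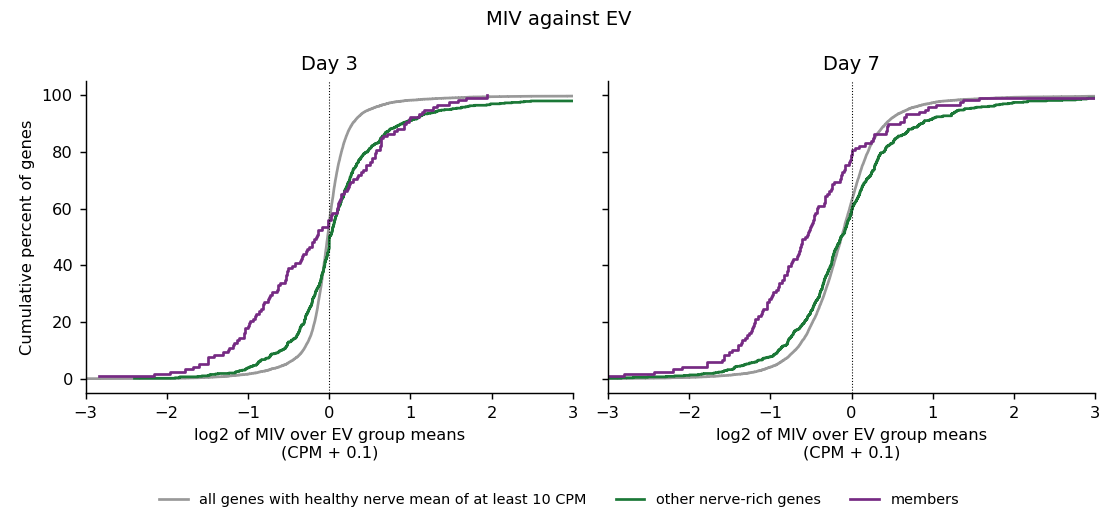
Cumulative percent of genes by the log2 ratio of MIV to EV group means (CPM plus 0.1) at day 3 (left) and day 7 (right), for the 118 members, 592 other nerve-rich genes and all 9495 genes with a healthy nerve mean of at least 10 CPM. At day 7 the members' curve lies to the left of both others around 0, and 2 members fall outside the range of -3 to 3.

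ENSRNOG00000005392 and ENSRNOG00000019161 had the smallest unadjusted p among the members lower in MIV at day 7. ENSRNOG00000005392 stood at 33.1, 8.82 and 4.29 CPM in MIV at day 7, all below the EV values above (log2 fold change -2.01 ± 0.65 SE, edgeR adjusted p = 0.175). At day 3 it stood at 3.76, 1.79 and 2.78 CPM in MIV, also below all EV libraries. ENSRNOG00000019161 stood at 6.78, 7.37 and 13.1 CPM in EV and at 4.16, 2.11 and 4.22 CPM in MIV at day 7, again without overlap (-1.25 ± 0.42 SE, edgeR adjusted p = 0.190). Healthy nerve stood at 77.1 CPM ± 3.79 (SD, n = 5) and vein at 16.9 CPM ± 3.99 (SD, n = 3), so both repairs were below nerve and vein for this gene.

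ENSRNOG00000005934 was the member with the smallest unadjusted p in the other direction (log2 fold change 3.59 ± 1.37 SE, edgeR adjusted p = 0.234). It stood at 2.92, 1.80 and 2.49 CPM in EV at day 7 and at 23.8, 0.656 and 54.8 CPM (360, 9 and 715 counts) in MIV replicates 1 to 3. Its MIV day 7 libraries thus lay on both sides of EV, in the order of their muscle-rich shares of 8.87%, 2.63% and 18.4%. Healthy muscle stood at 82.8 CPM ± 7.99 and vein at 3.03 CPM ± 0.328 for this gene (SD, n = 3 each). The part of grafted muscle in its MIV level was not tested. Over all members, 18 of 118 had their MIV day 7 libraries in this order, and 5 of those had a muscle mean above the vein mean. Any given order of 3 libraries is met by some genes by chance. The share over all genes was not counted, so nothing is read from this number. Among the 12 members with a muscle mean above the vein mean, the median ratio of MIV to EV day 7 means was 1.21 and 7 stood higher in MIV. Among the 106 with vein above muscle the median ratio was 0.644 and 18 stood higher in MIV. This split was not made over all genes, and the members share the same MIV day 7 libraries, so nothing is read from it.

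The MIV day 7 libraries differed from each other more than the EV libraries did. The members' median coefficient of variation over replicates was 82.0% in MIV at day 7, 31.7% in EV at day 7 and 15.7% in healthy nerve. MIV replicate 1 was above every MIV day 3 library for 117 members (28.9% of all genes with a count), replicate 2 for 69 (26.6%) and replicate 3 for 92 (27.9%). The EV day 7 replicates 1 to 3 were above every EV day 3 library for 118, 111 and 115 members (28.8%, 30.3% and 33.4% of all genes). Below the day 3 mean of their repair lay 1, 31 and 13 members in MIV day 7 replicates 1 to 3, and 0 in each EV day 7 library. The share over all genes was not counted for this. The rule used this contrast, and nothing is read from those counts beyond the difference between libraries. MIV replicate 1 was below every EV day 7 library for 24 members (25.5% of all genes) and above every one for 44 (20.9%). Replicate 2 was below every EV library for 105 members (33.0%) and replicate 3 for 79 (34.7%). The rule asks for a high MIV day 7 mean, and only 78 of the 118 members met its MIV ratio without replicate 1, so the order of the MIV libraries belongs in part to the choice of members.

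Leaving out MIV day 7 libraries moved the summary values accordingly. Without replicate 2 the median level in MIV was 7.19% of healthy nerve, the median ratio of MIV to EV means was 0.814, and 91 members had all remaining day 7 libraries above day 3 (17.6% of all genes with a count). Without replicate 1 the median level was 3.57%, the median ratio to EV 0.385, and 72 members had all remaining MIV libraries below EV (19.7% of all genes). With 2 libraries left in place of 3, groups separate more easily for any gene. With all 3 libraries the ratio was 0.670. Applying the whole rule without 1 library at a time gave between 80 genes (without MIV day 7 replicate 1) and 144 genes (without EV day 3 replicate 1), and 55 of the 118 members met it in every such setting.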

How the data were processed

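The deposited data were raw counts, whole numbers for each identifier and library that the authors had not normalized. Per the labels' protocols, TRIzol was used for RNA, poly-T beads for mRNA and a non-directional kit for libraries, so a gene's reads cannot be separated from those of an overlapping antisense gene. CASAVA and HISAT2 are named without versions per the submitters' processing notes. For the counting tool, genome build, annotation and reads shared by paralogs, nothing was given in the sources used here. All 23 columns matched a library title.

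The set, its rule and all gene lists were chosen with earlier results of these data known. The reference table (47357 RefSeq genes) held Ensembl identifiers in 0 rows, and 0 of 32545 identifiers matched a symbol. The 20 gene lists and 10 promoter motifs planned by symbol could therefore not be measured, and no sequence is printed. The rule left out certain identifiers, of which 2 met its conditions. They are not reported here. The rule for named genes needed symbols. Its fallback allowed at most 2 identifiers in each direction, which was applied to each comparison: highest and lowest percent of healthy nerve at day 7, highest EV ratio with more than 3 counts at day 3, and smallest unadjusted p between repairs.

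CPM used column totals. Tests used edgeR 4.0.16 in R 4.3.3: filterByExpr (minimum count 10, minimum total 15), TMM, robust glmQLFit and glmQLFTest with 1 coefficient per group. P-values were adjusted by Benjamini-Hochberg over all genes tested, with a threshold of 0.05. Comparisons between repairs used the 12 repaired libraries (15036 genes, 117 members, biological coefficient of variation 37.1%). Those with nerve used all 23 (15954 genes, 118 members, 31.4%). Log2 fold changes are edgeR's. Alternatives were DESeq2 1.42.0, no count filter, TMM factors without muscle-rich genes, the replicate block, other sets of libraries and each replicate left out. No 2 libraries of a group agreed within sampling noise. The labels' replicate numbers were checked as pairs on deviations from group means (log2 CPM, prior count 2). At day 7 the correlations of same-numbered EV and MIV libraries were 0.224, 0.201 and 0.176. At day 3 they were -0.091, 0.239 and -0.015, and with healthy nerve they ran from -0.151 to 0.125. Libraries of different numbers reached 0.186 (EV day 3 replicate 3 and MIV day 3 replicate 1) and 0.198 (EV day 7 replicate 2 and healthy nerve replicate 3). Between EV and MIV at day 7, those of different numbers ran from -0.153 to -0.023. The block within days was added after seeing the data.

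Simulated counts gave the sensitivity of the tests for genes drawn at random, with the same dispersion of a gene in every group. For MIV and EV at day 7 (14755 genes) the shares recovered were 16.4% at a 2-fold change, 62.7% at 4-fold and 80.3% at 8-fold. For EV day 7 and healthy nerve (15729 genes) they were 50.7%, 83.6% and 100%.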

Additional observations from a re-analysis of the deposited data

Results flagged for a closer look

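For ENSRNOG00000009345, 1 of the 5 healthy nerve libraries, replicate 5, stood apart at 1347 CPM, above the other 4 at 921 to 992 CPM (gap over range 0.831). For ENSRNOG00000019161 the same library stood apart on the low side, at 70.5 CPM against 78.0 to 80.3 CPM in the others (gap over range 0.766). These were 2 of 14 values examined, each at its lowest and its highest nerve library. The values were the CPM of the named members and summary values of the libraries, and chance alone sets about 1 in 20 such values apart. Both genes stood far below healthy nerve in all day 7 libraries of both repairs, with or without that library.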

How the results depend on the processing

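No result of the comparisons between repairs or with healthy nerve changed direction past the threshold under any alternative run. Between the repairs at day 7, where 0 members were called, DESeq2 called 2 members lower (229 of 14932 genes) and edgeR fitted on all 23 libraries called 3 lower and 1 higher (308 and 827 of 15954 genes). The latter fit had a smaller coefficient of variation than the 12 repaired libraries alone. Without muscle-rich genes in the scaling, the members' median log2 fold change at day 7 was -0.41 in place of -0.46. Leaving out each library in turn gave 0 members between the repairs at both days. Against healthy nerve it gave 115 to 118 lower in EV and 117 to 118 in MIV at day 3. At day 7 it gave 97 to 101 lower and 1 to 3 higher in EV, and 100 to 102 lower and 1 to 3 higher in MIV. The number of members was 106 with TMM-scaled library sizes (99 of them in the set), 90 with a MIV ratio of 3, 86 with tissue ratios of at least 5, and 80 to 144 with 1 library left out. A count was labelled the same if it stayed within a fixed fold of the main count, not only if it was equal. All the numbers of members from 80 to 144 carried that label. By this measure 165 of the main values under all alternatives stayed the same and the 7 given here moved.

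With the replicate number as a block within days, a pairing added after seeing the data, 1 member was called lower in MIV at day 7 (9 of 15036 genes), and it changed no other call between the repairs. The replicate block across days called 0. The samples compared with healthy nerve shared only a number. There the block left 1 member called higher in EV at day 7, since ENSRNOG00000005392 had an adjusted p of 0.119 (edgeR), and moved no other count of members by more than 1. The planned tests on pathway lists and promoter motifs were not run, because no identifier matched a symbol. Depth limits the day 3 values, since 50 members had at most 30 counts over the EV day 3 libraries.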
